A study of Mus musculus and Homo sapiens with 24 samples.

Results

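Whether the loss of MBD6 acts on the transcriptome in the same way with and without TET2 was examined in K-562 cells, an established leukaemia line with erythroid features. All 12 K-562 libraries of the series, out of 24 in total, were taken as a design of 2 genotypes by 2 hairpins with 3 libraries in each group. TET2WT-shControl and TET2WT-shMBD6 were wild-type (WT) cells carrying a control short hairpin RNA or a hairpin against MBD6, and TET2KO-shControl and TET2KO-shMBD6 were TET2 knockout (KO) cells carrying the same constructs. Each hairpin was delivered by lentivirus, and all 4 groups were grown in puromycin, so the controls had been transduced and selected too. The KO cells were 1 line and MBD6 was targeted by 1 hairpin, so differences between genotypes cannot be told apart from differences between those lines. The titles give the hairpins used here, whereas a sample sheet of the study lists small interfering RNAs for these libraries. No label says that the replicates were separate cultures, and p-values then measure only the spread between these libraries, which may be technical. The quantity described throughout is the interaction, the log2 fold change of shMBD6 over shControl in KO cells minus that in WT cells. A positive value means that the response in KO cells lay above the response in WT cells, and a negative value that it lay below. Effects given for WT or KO are log2 fold changes of shMBD6 over shControl in that genotype, and genes are called positive or negative by the sign of an interaction with an adjusted p under 0.05.

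TET2 is a dioxygenase that oxidises 5-methylcytosine in DNA and in RNA, and it is often mutated in myeloid malignancies. MBD6 belongs to the methyl-CpG-binding domain family and joins the BAP1 deubiquitinase complex (PR-DUB), which removes ubiquitin from histone H2A and so opposes a Polycomb repressive complex. The study considers it as a reader of 5-methylcytosine in RNA, the mark that TET2 oxidises, so the design asks whether cells with and without TET2 answer the loss of this reader alike.

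The libraries held 27625013 to 39877202 gene counts, and 17936 of 58721 genes passed the filter on low counts. K-562 is labelled as a lymphoblast line. Of 12 erythroid markers 11 exceeded 1 CPM (counts scaled to library size) in some library, and of 8 lymphoid markers 3 did. Summed erythroid markers came to 3002 to 3097 CPM in TET2WT-shControl, 3680 to 4014 in TET2WT-shMBD6, 1797 to 1852 in TET2KO-shControl and 1670 to 1699 in TET2KO-shMBD6. HBG2, a globin gene, made up the largest part of this sum, with a mean of 1188 CPM. The TET2WT-shControl libraries stood apart from the other 9. Spike-in RNA (ERCC) made up 0.865% to 0.874% of their counts, against 0.319% to 0.395% elsewhere. Short transcripts were also higher in them: the median log2 level of genes with at most 1500 bp of exon minus that of genes over 8000 bp was -0.03, 0.03 and 0.00 in TET2WT-shControl, -0.26, -0.34 and -0.21 in TET2WT-shMBD6, -0.23, -0.28 and -0.21 in TET2KO-shControl and -0.17, -0.19 and -0.19 in TET2KO-shMBD6. The WT effect and the interaction use this group, and neither can be fitted without it. Replicate 3 of TET2KO-shMBD6 differed most from its own group, and without it 4077 genes were called in place of 3820. Bulk counts do not tell fewer cells of a type apart from less RNA per cell.

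The targeted gene was read first. MBD6 (ENSG00000166987.14, hg38 chromosome 12, 57520710 to 57530148, plus strand) had 81.6, 88.4 and 77.3 CPM in TET2WT-shControl and 38.9, 38.2 and 36.8 CPM in TET2WT-shMBD6. In KO cells its levels were 73.4, 75.9 and 82.3 CPM with shControl and 43.5, 43.9 and 42.4 CPM with shMBD6. The shControl and shMBD6 libraries did not overlap in either genotype. The hairpin left 46.1% of the MBD6 transcript in WT cells and 56.0% in KO cells, and the interaction was 0.28 (SE 0.0763, adjusted p 0.0104) in the quasi-likelihood test of edgeR, adjusted by Benjamini-Hochberg. Relative to the bulk of genes, depletion was thus less deep in KO cells (-0.84 on the log2 scale) than in WT cells (-1.12). Scaling to the spike-ins instead moved the median effect of all genes by 1.14 in WT and 0.18 in KO, so this order depends on the scaling. How far a difference in depletion moved other genes was not tested.

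Among the TET dioxygenases, which oxidise 5-methylcytosine, TET1 responded in opposite directions. TET1 (ENSG00000138336.8, hg38 chromosome 10, 68560337 to 68694487, plus strand) had 52.7, 48.1 and 48.8 CPM in TET2WT-shControl, 68.5, 72.6 and 66.6 in TET2WT-shMBD6, 53.1, 54.4 and 51.5 in TET2KO-shControl and 41.8, 40.6 and 43.1 in TET2KO-shMBD6. Its control levels overlapped between genotypes, and shMBD6 libraries lay above the controls in WT and below them in KO. The effect was 0.47 in WT and -0.34 in KO, with an interaction of -0.82 (SE 0.0713, adjusted p 9.07e-08). TET3 fell in KO by 0.25 on the log2 scale, with 0.04 in WT (interaction -0.28, SE 0.0620, adjusted p 0.00217). TET2 transcript was present in all groups, at 33.2, 34.1 and 32.7 CPM in TET2KO-shControl, so its total count does not check the genotype. Its own interaction of -0.27 (adjusted p 0.0402) was not called when TET2KO-shControl replicate 1 or 2, TET2KO-shMBD6 replicate 1, TET2WT-shControl replicate 2 or 3, or TET2WT-shMBD6 replicate 1 or 2 was left out (-0.29 to -0.22). Of 16 tested genes of the TET and RNA m5C list, 0 were positive and 5 negative, 3 negative without TET2WT-shMBD6 replicate 1. The share called was 31.2%, against 25.9% of tested protein-coding genes. The writers NSUN2 (interaction -0.10, adjusted p 0.179), NSUN5 (-0.10, 0.33) and TRDMT1 (0.23, 0.194) did not pass. Neither did BAP1 (0.09, 0.318), the catalytic subunit of PR-DUB, nor its scaffold ASXL1 (-0.06, 0.45), nor MBD5 (-0.14, 0.454). Of 10 tested genes of MBD6 and PR-DUB, 1 was positive and 2 were negative, a share of 30% that was also near 25.9%. OGT, a sugar transferase that joins the complex, fell in KO by 0.28 on the log2 scale, with 0.01 in WT (interaction -0.29, SE 0.0374, adjusted p 1.20e-05). Within the Polycomb list, 1 of 35 tested genes was positive and 4 were negative, a share of 14.3% against 21.3% of all genes tested. Among the negative ones was EED (0.36 in WT, 0.06 in KO), a core subunit of the methylating complex.

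Of 17936 genes tested, 3820 had a shMBD6 effect that differed between genotypes (21.3%), 1840 of them positive (10.3%) and 1980 negative (11%). At an unadjusted p under 0.05 there were 5956. The called share was 25.9% of protein-coding genes and 8.98% of long non-coding RNA genes. For lists of protein-coding genes 25.9% is therefore the closer comparison. For comparison, shMBD6 raised 3653 genes (20.4%) and lowered 3446 (19.2%) in WT, and raised 3326 (18.5%) and lowered 2917 (16.3%) in KO. Most differences were small: the median size among called genes was 0.39 on the log2 scale, and 575 genes differed at least 2-fold. Of these 575, 280 had a group mean under 0.5 CPM, where a fold change depends on few counts. In all 12 fits that left out 1 library, 2614 genes kept the call, 1213 positive and 1401 negative.

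The called genes took several shapes. Among the 1840 positive genes, 715 fell in WT without passing in KO, 477 rose in KO without passing in WT, and 284 fell in WT and rose in KO. A further 177 fell in both and 130 rose in both. Among the 1980 negative genes, 761 rose in WT without passing in KO, 522 fell in KO without passing in WT, and 258 rose in WT and fell in KO. Another 271 rose in both and 105 fell in both. The commonest shape in either direction was therefore a response called in WT cells alone, and 542 genes crossed. When counts were scaled to the spike-ins instead, the median interaction of all genes moved by -0.95, the median WT effect by 1.14 and the median KO effect by 0.18. All values here are therefore relative to the bulk of genes, and a change in RNA per cell was not measured by them.

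**Figure D1:**
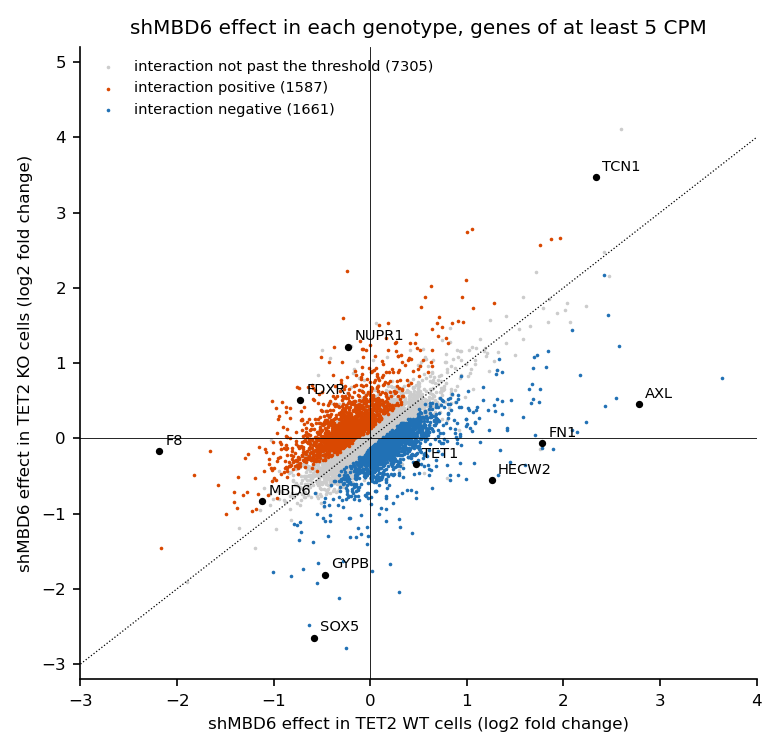
Each point is 1 of 10553 genes with a mean of at least 5 CPM; the x axis is the log2 fold change with shMBD6 in TET2 WT cells and the y axis that in TET2 KO cells, with the dotted line marking equal effects. The 1587 genes with a positive interaction lie above the line and the 1661 with a negative one below it, FN1 and AXL far to the right, and SOX5 near the bottom.

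Ribosomal protein genes, which encode the cytosolic ribosome, formed the most uniform group. Of 78 tested, 71 were positive and 0 negative, with a median interaction of 0.37 against 0.01 over all genes. In WT cells 59 fell and 3 rose with shMBD6, and in KO cells 67 rose and 0 fell. The small subunit had 28 of 31 positive and the large subunit 43 of 47. RPS27, a small-subunit protein, had 594, 675 and 636 CPM in TET2WT-shControl, 504, 429 and 537 in TET2WT-shMBD6, 587, 529 and 548 in TET2KO-shControl and 739, 760.4 and 792 in TET2KO-shMBD6. All of its WT shMBD6 libraries lay below the WT controls, and all of its KO shMBD6 libraries above the KO controls. Its interaction was 0.84 (SE 0.0840, adjusted p 4.46e-07). RPL41 (0.89), RPS28 (0.86) and RPL39 (0.82) had interactions of similar size. RPL39 lies on X at 119.8 Mb, in the window from 110 to 120 Mb where 13 of 25 genes were positive. As a list, the median log2 level relative to the mean of TET2WT-shControl was -0.16, -0.23 and -0.12 in TET2WT-shMBD6, -0.05, -0.12 and -0.06 in TET2KO-shControl and 0.15, 0.15 and 0.13 in TET2KO-shMBD6, so the KO shMBD6 libraries were the highest of all.

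Nuclear genes of oxidative phosphorylation moved the same way, less uniformly. Of 77 tested, 33 were positive and 0 negative, with a median of 0.23, and 45 fell in WT against 7 in KO. By complex, 14 of 38 genes of complex I, 0 of 4 of complex II, 4 of 9 of complex III, 6 of 10 of complex IV and 9 of 15 of the ATP synthase were positive. COX5B, a subunit of cytochrome c oxidase, had 299, 347 and 318 CPM in TET2WT-shControl, 215, 175 and 232 in TET2WT-shMBD6, 288, 218 and 270.0 in TET2KO-shControl and 321, 308 and 297 in TET2KO-shMBD6. It fell in WT by 0.63 on the log2 scale and rose in KO by 0.26 (interaction 0.89, SE 0.122, adjusted p 2.05e-05). The complex I subunits NDUFA1 (0.81), NDUFA2 (0.76) and NDUFB1 (0.58) were also positive. NDUFA1 lies in the same window of X as RPL39, at 119.9 Mb. Of 15 mitochondrially encoded genes, 2 were positive and 1 negative, a share of 20% against 21.3% of all genes. With the length trend described next removed, 0 were positive and 8 negative.

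These proteins have short transcripts, and the interaction moved with exon length. Its median was 0.33 over 99 protein-coding genes with at most 1000 bp of exon and at least 5 CPM, 0.11 over 1044 genes of 2000 to 3000 bp and -0.09 over 2668 genes over 8000 bp. Removing each library's trend of level on exon length, an alternative chosen after seeing the data, left 67 of 78 ribosomal protein genes positive and none negative, with a median of 0.30. Exon length here joins all annotated exons of a gene. Its median was 3240 bp for ribosomal proteins and 2615 bp for oxidative phosphorylation, against 4342 bp over all genes. Genes of 3000 to 4000 bp had a median interaction of 0.06, so this step could take little from ribosomal proteins. A trend on transcript length itself was not tested. For oxidative phosphorylation, removing the trend on exon length left 21 positive and 2 negative of 77, and the median went from 0.23 to 0.10. Over all genes 3514 were then called, 1647 positive and 1867 negative.

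Genes of the red-cell membrane, the spectrin skeleton and the surface antigens bound to it, fell more often than they rose with shMBD6 in KO cells. In WT cells they were mixed. Of 29 tested, 11 were negative and 3 positive, with a median interaction of -0.29. The positive members were DMTN (0.49), CD47 (0.43) and BLVRB (0.20). Members not called included EPB41 (-0.03), EPB42 (0.00), TMOD1 (-0.07) and GYPC (-0.04). In KO 15 fell and 5 rose, and in WT 8 fell and 11 rose. GYPB (ENSG00000250361.8, hg38 chromosome 4, 143996104 to 144019380, minus strand), which encodes glycophorin B, a sialoglycoprotein of the red-cell surface, had 15, 12.9 and 13.2 CPM in TET2WT-shControl, 9.61, 9.23 and 10.9 in TET2WT-shMBD6, 11.1, 9.90 and 9.71 in TET2KO-shControl and 2.42, 3.17 and 3.18 in TET2KO-shMBD6. The WT shMBD6 libraries lay below the WT controls and overlapped the KO controls, and the KO shMBD6 libraries were the lowest. It fell in both genotypes, more in KO (-0.47 in WT, -1.81 in KO), with an interaction of -1.34 (SE 0.163, adjusted p 4.91e-06). It belongs to a family of near-identical genes, and reads with several alignments were not counted, so its value is uncertain.

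ADD2 (ENSG00000075340.22, hg38 chromosome 2, 70607618 to 70768225, minus strand), beta adducin, which caps the spectrin skeleton, had 61.9, 63.6 and 60.9 CPM in TET2WT-shControl, 69.9, 68.5 and 71.1 in TET2WT-shMBD6, 132, 129 and 136 in TET2KO-shControl and 78.2, 77 and 73.6 in TET2KO-shMBD6. KO controls were far above WT libraries, and the KO shMBD6 libraries came down to just above the WT shMBD6 ones. It rose in WT (0.17) and fell in KO (-0.80), with an interaction of -0.96 (SE 0.0565, adjusted p 2.45e-10). Chosen after their values were seen, SPTB, the beta chain of spectrin (-0.09 in WT, -1.02 in KO), and ANK1, the ankyrin that anchors it (-0.00 in WT, -0.45 in KO), had negative interactions too. The median log2 level of the list relative to TET2WT-shControl was 0.02, 0.07 and -0.02 in TET2WT-shMBD6, -0.24, -0.18 and -0.18 in TET2KO-shControl and -0.49, -0.52 and -0.47 in TET2KO-shMBD6. By this median, unlike for ADD2, the KO controls were already below the WT libraries, and the KO shMBD6 libraries were lower again.

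Over the promoters of the 29 list members, AGATAA, the core motif of GATA factors, was found on either strand in 9 (31.0%), against 6.52% of 13091 promoters of tested protein-coding genes. Of these 9 genes 2 were negative, 2 were positive and 5 were not called, and over all negative genes the share was 6.69%. These windows are the 250 bases before the annotated start. The AP-1 motif TGACTCA, searched in the same way, was found in 3 of 29 (10.3%), against 2.86% of all. A match describes letters and is not a measured binding site.

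Globin genes, which encode the chains of haemoglobin, took another shape, with the larger rise in WT cells. Of 9 tested, counting the chaperone AHSP, 4 were negative and 1 was positive. HBA1 (ENSG00000206172.8, hg38 chromosome 16, 176680 to 177522, plus strand), an alpha chain, had 76.2, 75.8 and 79 CPM in TET2WT-shControl, 152, 164 and 156 in TET2WT-shMBD6, 31.6, 30.2 and 36.9 in TET2KO-shControl and 36.5, 36 and 36.2 in TET2KO-shMBD6. The WT shMBD6 libraries were the highest, and the KO groups overlapped (interaction -0.89, SE 0.0792, adjusted p 1.11e-07). HBZ, the embryonic alpha-type chain, rose in both genotypes, by 0.92 in WT and 0.42 in KO. HBA2 rose in WT by 1.42, with 0.13 in KO. HBA1 and HBA2 are near-identical copies, and their split is uncertain. AHSP, which stabilises free alpha globin, went the opposite way: it had 17, 20.9 and 17.3 CPM in TET2WT-shControl and 4.70, 5.10 and 5.80 in TET2WT-shMBD6, and it was at 0.59 to 1.30 CPM in all KO libraries. Its interaction of 1.34 (SE 0.298, adjusted p 0.00251) thus came from a fall in WT cells from a level that KO cells did not have. The median log2 level of the globin list relative to TET2WT-shControl was 0.54, 0.34 and 0.45 in TET2WT-shMBD6, -1.27, -1.30 and -1.05 in TET2KO-shControl and -0.91, -0.98 and -1.04 in TET2KO-shMBD6, so globins were low in both KO groups.

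Of 29 genes of haem synthesis and erythroid iron handling, 6 were negative and 3 positive, a share of 31% against 25.9% of tested protein-coding genes. Of these 9 genes, 5 kept the call in all 12 fits that left out 1 library. The positive count was 1 when TET2WT-shControl replicate 2, TET2WT-shMBD6 replicate 2 or 3, TET2KO-shControl replicate 1 or 2, or TET2KO-shMBD6 replicate 1 was left out, and also with the length trend removed, which left 7 negative. TFRC, the transferrin receptor that brings iron into erythroid cells, had 311, 307 and 310.5 CPM in TET2WT-shControl, 285, 288 and 274 in TET2WT-shMBD6, 453, 465 and 453 in TET2KO-shControl and 279.9, 287 and 283 in TET2KO-shMBD6. It started higher in KO cells and ended at the level of WT shMBD6 cells (interaction -0.56, SE 0.0410, adjusted p 7.08e-09). SLC11A2, the endosomal iron transporter, fell in KO by 0.27 on the log2 scale, with 0.10 in WT. TMEM14C, a mitochondrial protein needed for haem synthesis, fell in WT by 0.43, with -0.03 in KO. Among transcription factors of the lineage, 5 of 24 were positive, 3 of them without TET2KO-shControl replicate 1, and 2 negative. That share of 29.2% was near the 25.9% of tested protein-coding genes. SOX6, a factor involved in globin switching and red-cell maturation, fell in both, by 0.54 in WT and by 1.66 in KO (interaction -1.12, SE 0.150, adjusted p 1.65e-05). LMO2, a bridging protein of the GATA complex, fell more in WT (-0.74) than in KO (-0.35). LYL1, a partner of LMO2, fell in WT (-0.26) and rose in KO (0.17).

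Among genes of the extracellular matrix 17 rose and 2 fell with shMBD6 in WT, and 12 rose and 6 fell in KO. Of 32 tested out of 47 listed, 11 were negative and 2 positive, and the median effect was 0.65 in WT and 0.20 in KO. FN1 (ENSG00000115414.18, hg38 chromosome 2, 215360440 to 215436073, minus strand), fibronectin, had 90.1, 92.7 and 91.7 CPM in TET2WT-shControl, 318, 314 and 312 in TET2WT-shMBD6, 303, 322 and 312 in TET2KO-shControl and 290.0, 294 and 315 in TET2KO-shMBD6. The TET2WT-shControl libraries were far below the other 3 groups, which lay close together. The effect was 1.78 in WT and -0.06 in KO, with an interaction of -1.84 (SE 0.0496, adjusted p 1.08e-15). Chosen after their values were seen, LAMB1, a laminin chain (1.34 in WT, -0.16 in KO), and COL18A1, a basement-membrane collagen (1.14, -0.05), had the same shape. VCAN, a large proteoglycan, was at 0.15 to 0.42 CPM in TET2WT-shControl and 1.16 to 1.76 in TET2WT-shMBD6, near the lower end of detection. The summed stromal markers, which FN1 dominates, came to 113 to 114 CPM in TET2WT-shControl, 352 to 358 in TET2WT-shMBD6, 369 to 387 in TET2KO-shControl and 404 to 420 CPM in TET2KO-shMBD6. The sum rose with FN1 in WT, but in KO it rose while FN1 did not. The part of these markers in the matrix result was not tested.

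The FN1 promoter is shown as that of a gene with a large WT response. The 250 bases before the annotated start (chr2:215436074-215436323, hg38, minus strand) are printed 5′ to 3′, with capitals at a cyclic AMP response element (TGACGTCA), a CCAAT box and SP1 motifs (GGGCGG), some of which overlap.
FN1: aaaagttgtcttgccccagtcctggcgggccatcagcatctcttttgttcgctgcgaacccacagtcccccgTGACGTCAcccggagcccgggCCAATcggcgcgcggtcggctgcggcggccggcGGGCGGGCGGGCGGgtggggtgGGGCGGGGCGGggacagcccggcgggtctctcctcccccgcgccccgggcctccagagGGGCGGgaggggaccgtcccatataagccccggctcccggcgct
TGACGTCA was found in 2.19% of the 13091 promoters, CCAAT in 33.7% and GGGCGG in 57.3%. Among all called genes with a promoter, the ETS motif CCGGAAG was found in 14% of 1599 positive and 9.15% of 1793 negative genes, against 11.7% of all. CCAAT was found in 38.0% of positive and 32.5% of negative genes.

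Adhesion and cytoskeletal genes were mixed: of 44 tested, 13 were negative and 9 positive. AXL (ENSG00000167601.11, hg38 chromosome 19, 41219223 to 41261766, plus strand), a receptor tyrosine kinase, had 1.74, 1.08 and 1.18 CPM in TET2WT-shControl, 9.11, 8.79 and 9.13 in TET2WT-shMBD6, 4.09, 4.99 and 5.48 in TET2KO-shControl and 8.00, 6.03 and 5.94 in TET2KO-shMBD6. Both genotypes rose, by 2.78 in WT and 0.46 in KO (interaction -2.32, SE 0.234, adjusted p 4.72e-07). CD44, the hyaluronan receptor, also rose in both, by 2.58 and 1.23. ZYX, a focal adhesion protein, rose in WT by 0.55, with 0.02 in KO, whereas LGALS1, galectin-1, fell in WT (-0.23) and rose in KO (0.25). Of 15 YAP and TEAD targets, 5 were negative and none positive, among them the factors TEAD1 (-0.34) and TEAD4 (-0.48). The negative count was 3 without TET2WT-shControl replicate 1, TET2WT-shMBD6 replicate 3 or TET2KO-shControl replicate 2, and 3 with the length trend removed. In the TGF-beta and BMP list, with 24.2% called against 21.3% of all genes, 3 of 33 were positive and 5 negative. Its receptor ACVRL1 rose in both genotypes and further in KO (1.57 in WT, 2.84 in KO), and the co-receptor TGFBR3 rose in WT (0.42) and fell in KO (-0.27).

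Synthesis of cholesterol and fatty acids, the set of enzymes driven by the SREBP factors, stood higher after shMBD6 in WT than in KO. Of 36 tested, 16 were negative and 2 positive, with a median interaction of -0.16. In WT 17 rose and 6 fell, and in KO 10 rose and 11 fell. MSMO1, a sterol oxidase of the pathway, had 41, 38.4 and 37.9 CPM in TET2WT-shControl, 61.8, 64.8 and 63.7 in TET2WT-shMBD6, 25.6, 26.9 and 24.8 in TET2KO-shControl and 28.5, 32.8 and 30.0 in TET2KO-shMBD6 (interaction -0.46, SE 0.0837, adjusted p 4.06e-04). STARD4, a sterol carrier, rose in WT by 0.60, with 0.14 in KO. Chosen after its values were seen, SREBF2, the factor that drives the pathway, had 0.05 in WT and -0.26 in KO. NSDHL, a sterol dehydrogenase on the distal long arm of X, was positive (0.52). CCAAT was found in 22 of the 36 promoters (61.1%), and removing the length trend left 14 negative and 4 positive.

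Ribosome biogenesis, the nucleolar machinery that builds ribosomes, went against the ribosomal proteins: 21 of 65 were negative and 5 positive, with a median of -0.10. UTP20, a processing factor of the small subunit, rose in WT (0.23) and fell in KO (-0.37). MYBBP1A and RRP12, nucleolar proteins, rose in WT by 0.41 and 0.32, with 0.03 and -0.02 in KO. MYC, which drives this programme, had 182, 190.2 and 186 CPM in TET2WT-shControl, 239, 245 and 235 in TET2WT-shMBD6, 205, 206 and 212 in TET2KO-shControl and 209.9, 201 and 195 in TET2KO-shMBD6. It rose in WT, and its KO groups overlapped (interaction -0.40, SE 0.0477, adjusted p 3.47e-06).

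Components of JAK-STAT signalling, through which cytokine receptors act in blood cells, were more often negative (9 of 29) than positive (2). JAK2, the kinase of the erythropoietin receptor, had 60.0, 58.6 and 54 CPM in TET2WT-shControl, 64.7, 68.3 and 59.7 in TET2WT-shMBD6, 68.4, 69.8 and 60.9 in TET2KO-shControl and 42.1, 46.4 and 47 in TET2KO-shMBD6. The KO shMBD6 libraries were below all others (interaction -0.72, SE 0.0879, adjusted p 5.78e-06). STAT5A, the transcription factor downstream of it, rose in WT (0.35) and fell in KO (-0.11). LIFR, a cytokine receptor chain, and SOCS1, a feedback inhibitor, rose in WT by 1.33 and 0.60, with -0.21 and 0.08 in KO. SOCS3, another feedback inhibitor, rose in both (0.23 in WT, 0.47 in KO), and its interaction did not pass (adjusted p 0.076).

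Interferon-induced genes, which answer viral nucleic acid, were mostly on the positive side: 14 of 45 tested were positive and 1 was negative. With shMBD6 22 rose and 1 fell in KO, against 12 and 16 in WT. ISG15, a ubiquitin-like protein, had 20.7, 21.1 and 21.1 CPM in TET2WT-shControl, 13.3, 13.2 and 11.8 in TET2WT-shMBD6, 9.39, 9.39 and 9.11 in TET2KO-shControl and 12.3, 11.4 and 12.2 in TET2KO-shMBD6. It fell in WT and rose in KO, from a lower control level, and the levels of both shMBD6 groups overlapped (interaction 1.08, SE 0.112, adjusted p 6.34e-07). IFIH1, a sensor of double-stranded RNA, rose in both genotypes and further in KO (0.60 in WT, 1.74 in KO, interaction 1.14, SE 0.270, adjusted p 0.00437). Of 14 MHC genes, which present peptides to T cells, 2 were positive and none negative, a share of 14.3% against 21.3% of all genes. These were HLA-E (-0.04 in WT, 0.52 in KO) and B2M (-0.07, 0.33), the light chain of class I. In the NF-kB list 4 of 28 were positive, among them TNIP1 (0.33), and 1 was negative. That share of 17.9% was below that of all genes, and the positive count was 1 without TET2KO-shControl replicate 1 or TET2KO-shMBD6 replicate 1. It was 2 without TET2WT-shControl replicate 2, any 1 library of TET2WT-shMBD6 or TET2KO-shControl replicate 2. NFKBIA, the inhibitor of NF-kB, did not pass (0.23, adjusted p 0.136).

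Lysosome and autophagy genes had 14 positive and 1 negative of 35, with 12 falling in WT and 18 rising in KO. NPC2, a lysosomal cholesterol carrier, fell in WT (-0.52) and rose in KO (0.15). ATG5, needed to form autophagosomes, did likewise (-0.29 in WT, 0.31 in KO), and OPTN, an autophagy receptor, rose in KO by 0.52, with -0.05 in WT. Removing the length trend left 16 of these genes positive.

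Of 25 p53 targets, 7 were positive and 0 negative, a share of 28% against 25.9% of tested protein-coding genes. K-562 is known to lack functional p53, so the list names genes and not an active pathway. FDXR (ENSG00000161513.11, hg38 chromosome 17, 74862497 to 74873031, minus strand), a mitochondrial ferredoxin reductase, had 162, 172 and 169 CPM in TET2WT-shControl, 100.3, 98.2 and 107 in TET2WT-shMBD6, 86.9, 81.5 and 86.8 in TET2KO-shControl and 124, 121 and 117 in TET2KO-shMBD6. The hairpin lowered it in WT and raised it in KO without overlap (interaction 1.23, SE 0.0588, adjusted p 1.11e-11). CDKN1A, the p21 cell-cycle inhibitor, rose in both genotypes, by 0.22 in WT and 0.93 in KO, from KO control levels of 6.01, 5.36 and 7.07 CPM against 35, 36.6 and 34.4 CPM in WT. Among death regulators, BCL2, which blocks apoptosis, rose in WT (0.71) and fell in KO (-0.94), while BMF, which promotes it, rose in KO by 0.89, with 0.17 in WT. That list had 7 positive and 3 negative of 27.

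Stress and metabolic programmes were divided. NUPR1 (ENSG00000176046.8, hg38 chromosome 16, 28532708 to 28539008, minus strand), a small stress-induced chromatin protein, had 67.1, 66.7 and 69.9 CPM in TET2WT-shControl, 60.1, 55.4 and 58 in TET2WT-shMBD6, 49.1, 54.2 and 53.5 in TET2KO-shControl and 122, 125 and 118 in TET2KO-shMBD6. It fell slightly in WT and more than doubled in KO (interaction 1.45, SE 0.0658, adjusted p 6.06e-12). Its list, the ATF4 response, held 9 positive and 8 negative genes of 39, and ASNS, asparagine synthetase and a canonical target, was on the negative side (-0.59). Chaperones were mixed too (5 positive and 6 negative of 41), with 26.8% called against 25.9% of tested protein-coding genes. HSPA5, the main chaperone of the endoplasmic reticulum, rose by 0.60 in WT and 0.13 in KO, and HSPA8, its cytosolic relative, by 0.08 in WT and 0.46 in KO. With the length trend removed the ATF4 list had 5 positive and 7 negative. Chaperones then had 11 negative, and 10 in the uncorrected fit without TET2KO-shControl replicate 3. Of 22 aminoacyl-tRNA synthetases 6 were negative and 2 positive, but 3 and 4 with the length trend removed. For glycolysis and hypoxia 7 of 39 were positive and 6 negative (33.3% called). The positive count was 4 when TET2WT-shControl replicate 2, TET2WT-shMBD6 replicate 1 or 3, or TET2KO-shControl replicate 2 was left out. HK2, a hexokinase, rose more in WT (1.00) than in KO (0.19), and SLC2A1, the main glucose transporter, rose in WT (0.28) and fell in KO (-0.36).

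Immediate early genes rose in both genotypes, 20 of 35 in WT and 22 in KO, and 5 had a positive and 2 a negative interaction, no more than the 21.3% called over all genes. The positive count was 3 without TET2WT-shMBD6 replicate 2 or TET2KO-shControl replicate 2, and 2 with the length trend removed. EGR1, a growth-factor-induced zinc finger factor, had 39.8, 43.6 and 41.9 CPM in TET2WT-shControl, 59, 58.2 and 57.5 in TET2WT-shMBD6, 15.5, 16.3 and 18.4 in TET2KO-shControl and 44.4, 44.7 and 41.7 in TET2KO-shMBD6 (interaction 0.91, SE 0.0866, adjusted p 2.50e-07). DNA replication genes had 12 positive and 6 negative of 58 (31% called), with values such as TK1, thymidine kinase (0.00 in WT, 0.32 in KO). At 25.9% called, the share of all tested protein-coding genes, mitotic genes had 8 positive and 6 negative of 54. Their positive count was 4 without TET2KO-shControl replicate 2 and 5 without TET2WT-shControl replicate 2 or TET2WT-shMBD6 replicate 2, and with the length trend removed 5 were positive and 8 negative. CENPE, a kinetochore motor, fell in KO by 0.43, with -0.10 in WT, and CKS1B, a small subunit of cyclin-dependent kinases, fell in WT by 0.45, with -0.02 in KO. CDK4, a G1 kinase, fell in both (-0.68 in WT, -0.30 in KO) and CDK6, its relative, rose in WT (0.33) and fell in KO (-0.13). Their list of cell-cycle inhibitors, D cyclins and kinases had 6 positive and 3 negative of 23. Cell-cycle lists thus had calls in both directions, with median interactions of 0.06 for replication and 0.01 for mitosis.

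Histone genes that follow DNA replication had 15 positive and 0 negative of 34, a share of 44.1% against 21.3% of all genes. Their median exon length was 507 bp. Of 99 protein-coding genes with at most 1000 bp of exon and at least 5 CPM, 53 were positive and 3 negative (56.6% called). With the length trend removed 12 histone genes were positive, and the median interaction of the list went from 0.67 to 0.37. H2AC8 had 25, 23.8 and 23.3 CPM in TET2WT-shControl, 22.2, 25.1 and 22.7 in TET2WT-shMBD6, 11.4, 13.2 and 11.7 in TET2KO-shControl and 29.4, 25.4 and 26.9 in TET2KO-shMBD6 (interaction 1.21, SE 0.112, adjusted p 1.51e-07). For H2AC8 KO controls were low, and KO shMBD6 libraries lay above every WT library. Over the list the median log2 level relative to TET2WT-shControl was -0.10, 0.00 and -0.13 in TET2WT-shMBD6, -0.66, -0.66 and -0.71 in TET2KO-shControl and -0.31, -0.14 and -0.38 in TET2KO-shMBD6, so the KO shMBD6 libraries stayed below every WT library. These transcripts mostly lack poly(A) tails and are near-identical copies, so their counts are uncertain. Of 226 zinc finger genes of chromosome 19, 37 were positive and 10 negative, a share of 20.8% near that of all genes. In the DNA methylation and silencing list 5 of 40 were positive and 6 negative, a share of 27.5% against 25.9% of tested protein-coding genes. DNMT3A, a de novo DNA methyltransferase, rose in WT by 0.17 and fell in KO by 0.58 (interaction -0.75, SE 0.0854, adjusted p 2.35e-06). Of 25 imprinted genes 7 were negative and 2 positive. DLK1, a Notch-like ligand on chromosome 14, rose in WT from 104, 103 and 104 to 221, 227 and 213 CPM and in KO from 111, 117 and 121 to 132, 130.3 and 142 CPM (interaction -0.88, SE 0.0583, adjusted p 1.77e-09).

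Markers of other lineages were few. Of the 16 granulocytic and monocytic genes 2 were positive and 2 negative. TCN1, a cobalamin-binding protein of neutrophil granules, rose in both genotypes and furthest in KO, with 6.38, 6.47 and 7.58 CPM in TET2WT-shControl, 35, 34.1 and 33.8 in TET2WT-shMBD6, 24.1, 22.6 and 22.7 in TET2KO-shControl and 246, 248 and 278 in TET2KO-shMBD6 (interaction 1.14, SE 0.0918, adjusted p 2.83e-08). Of the 11 megakaryocyte genes 2 were positive and 1 negative. ITGA2B, the platelet integrin alpha chain, fell in WT (-0.60) and rose in KO (0.17). PTPRC, which encodes CD45, was at 209 to 272 CPM in WT libraries and at 0.28 to 1.56 CPM in KO libraries, so its response in KO cells rests on few counts. The lymphoid list had 2 positive and 3 negative of 11, HOX genes and partners 2 and 1 of 23, and Notch and Wnt signalling 2 and 4 of 33. Shares called were 25% for granulocytic and monocytic genes, 27.3% for megakaryocyte, 45.5% for lymphoid, 13% for HOX and 18.2% for Notch and Wnt genes. Over all genes tested the share was 21.3%.

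The single genes with the largest differences, among protein-coding genes of at least 5 CPM called in every fit that left out 1 library, were of several kinds. On the negative side, OSBPL6, an oxysterol-binding protein, had 2.10, 1.73 and 1.5 CPM in TET2WT-shControl, 7.38, 7.74 and 8.35 in TET2WT-shMBD6, 41.5, 43.6 and 42 in TET2KO-shControl and 44.6, 44.5 and 45.2 in TET2KO-shMBD6 (interaction -2.06, SE 0.127, adjusted p 4.85e-10). KO cells were already far above WT cells, and the hairpin moved the WT level alone. NEK6, a mitotic kinase, had the same shape, with 3.12, 3.21 and 3.03 CPM in TET2WT-shControl, 11.3, 12.3 and 11.2 in TET2WT-shMBD6 and 30.8 to 37.4 in all KO libraries. ACP3, ZC3H12C, ABCA8, CACNA1I and DPY19L2, also among the 10 most negative, were all under 1 CPM in TET2WT-shControl and over 7 CPM in every KO library. SOX5, a relative of SOX6, fell in both and further in KO (-0.59 in WT, -2.65 in KO), and GAL, the neuropeptide galanin, rose in WT (1.60) and fell in KO (-0.35). Of 45 genes with at least 2-fold change in 1 genotype and under 0.25 on the log2 scale in the other, 15 rose and 6 fell in WT, and 11 rose and 13 fell in KO.

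Among genes that responded mainly in KO, IGF1, insulin-like growth factor 1, had 2.46, 1.96 and 2.12 CPM in TET2WT-shControl, 2.47, 3.01 and 1.97 in TET2WT-shMBD6, 65.2, 65.7 and 56.5 in TET2KO-shControl and 20.1, 20.7 and 18.1 in TET2KO-shMBD6 (interaction -1.88, SE 0.180, adjusted p 2.54e-07). It was nearly absent from WT cells, and shMBD6 lowered the KO level. DHRS2, a short-chain dehydrogenase, rose in KO from 31.6, 30.6 and 31 to 90.8, 86.1 and 92.4 CPM, toward WT levels of 193 to 230 CPM. CNIH3, a receptor auxiliary protein, rose in KO by 1.33, with 0.16 in WT. THSD4, a secreted matrix-associated protein, fell in WT by 1.66, with -0.17 in KO.

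Crossing genes were named by the smaller of their 2 effects. HECW2, a ubiquitin ligase, had 9.96, 8.05 and 9.46 CPM in TET2WT-shControl, 23.2, 20.4 and 21.7 in TET2WT-shMBD6, 44.5, 46 and 44.6 in TET2KO-shControl and 28.5, 31.8 and 31.4 in TET2KO-shMBD6. It rose in WT and fell in KO, which brought the genotypes closer (interaction -1.82, SE 0.110, adjusted p 3.57e-10). RPS6KA2, a ribosomal S6 kinase, had 5.72, 5.42 and 4.87 CPM in TET2WT-shControl, 10.0, 10.8 and 11 in TET2WT-shMBD6, 7.83, 7.29 and 8.05 in TET2KO-shControl and 5.03, 5.39 and 5.49 in TET2KO-shMBD6, so that the order of the genotypes turned. KCNK1, a potassium channel (0.64 in WT, -0.66 in KO), and SLC16A9, a monocarboxylate transporter (0.83, -0.56), crossed in the same direction. In the opposite direction, TNNI3, cardiac troponin I, had 59.9, 58.9 and 63.9 CPM in TET2WT-shControl, 39.3, 40.5 and 40.2 in TET2WT-shMBD6, 15.1, 13.9 and 16.5 in TET2KO-shControl and 23.7, 22.6 and 27.7 in TET2KO-shMBD6 (interaction 1.31, SE 0.104, adjusted p 2.37e-08). CHCHD6, a protein of the mitochondrial cristae, fell in WT (-0.59) and rose in KO (0.67), as did SLC6A19, an amino acid transporter (-0.74, 0.67).

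By position, the distal long arm of chromosome X stood out. Of 648 tested genes of X, 153 were positive and 62 negative (33.2% called). The positive ones were most frequent beyond 120 Mb, a boundary chosen after the values were seen, where 87 of 111 protein-coding genes of at least 5 CPM were positive and none negative (78.4%), with a median interaction of 0.51. Over the rest of X 40 of 236 such genes were positive and 47 negative, with a median of -0.01. The boundary is not sharp: the window from 110 to 120 Mb, counted with the rest, had 13 of 25 positive and 2 negative, with a median of 0.24. The median log2 level of the 111 genes relative to TET2WT-shControl was -0.04, 0.02 and -0.00 in TET2WT-shMBD6, -0.62, -0.63 and -0.63 in TET2KO-shControl and -0.23, -0.20 and -0.16 in TET2KO-shMBD6. KO controls were low over this stretch, and KO shMBD6 libraries were closer to WT, whereas in WT cells 34 of these genes rose and 33 fell. Between genotypes the median difference, KO minus WT, was -0.63 with shControl and -0.19 with shMBD6. DNA copy number was not measured, and its part was not tested. The window from 150 to 160 Mb had the largest median on any chromosome, 0.54, with 54 of 70 genes positive. Within it F8, coagulation factor VIII, had 14.6, 16.6 and 15.4 CPM in TET2WT-shControl, 4.38, 3.15 and 2.75 in TET2WT-shMBD6, 6.68, 6.78 and 7.51 in TET2KO-shControl and 6.06, 6.71 and 5.83 in TET2KO-shMBD6. F8 thus fell in WT and its KO groups overlapped (interaction 2.01, SE 0.185, adjusted p 1.51e-07). RENBP, the renin-binding protein, fell in WT (-1.01) and rose in KO (0.49).

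Cancer-testis antigens, germline genes switched on in tumours, lie largely on X. Of 35 tested out of 48 listed, 13 were positive and 0 negative, and 7 and 2 with the length trend removed, when the median went from 0.37 to 0.15. Of these 35, 16 lie on distal X, with 8 called, and 19 elsewhere, with 5 called. SAGE1 had 66, 68.6 and 63.9 CPM in TET2WT-shControl, 69.4, 70.5 and 69 in TET2WT-shMBD6, 45.9, 45.5 and 45.9 in TET2KO-shControl and 69.2, 70.2 and 108 in TET2KO-shMBD6, with the last library well above its replicates (interaction 0.78, SE 0.151, adjusted p 7.94e-04). PAGE4, which lies on the short arm, rose in both genotypes, by 1.00 in WT and 2.75 in KO (interaction 1.75, SE 0.161, adjusted p 1.51e-07). CTAG2 was at 27.1 to 36.9 CPM in WT libraries and at most 0.22 CPM in KO libraries, so that its KO response rests on few counts. MAGE and PAGE members share near-identical sequence, and their separate values are uncertain.

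**Figure D2:**
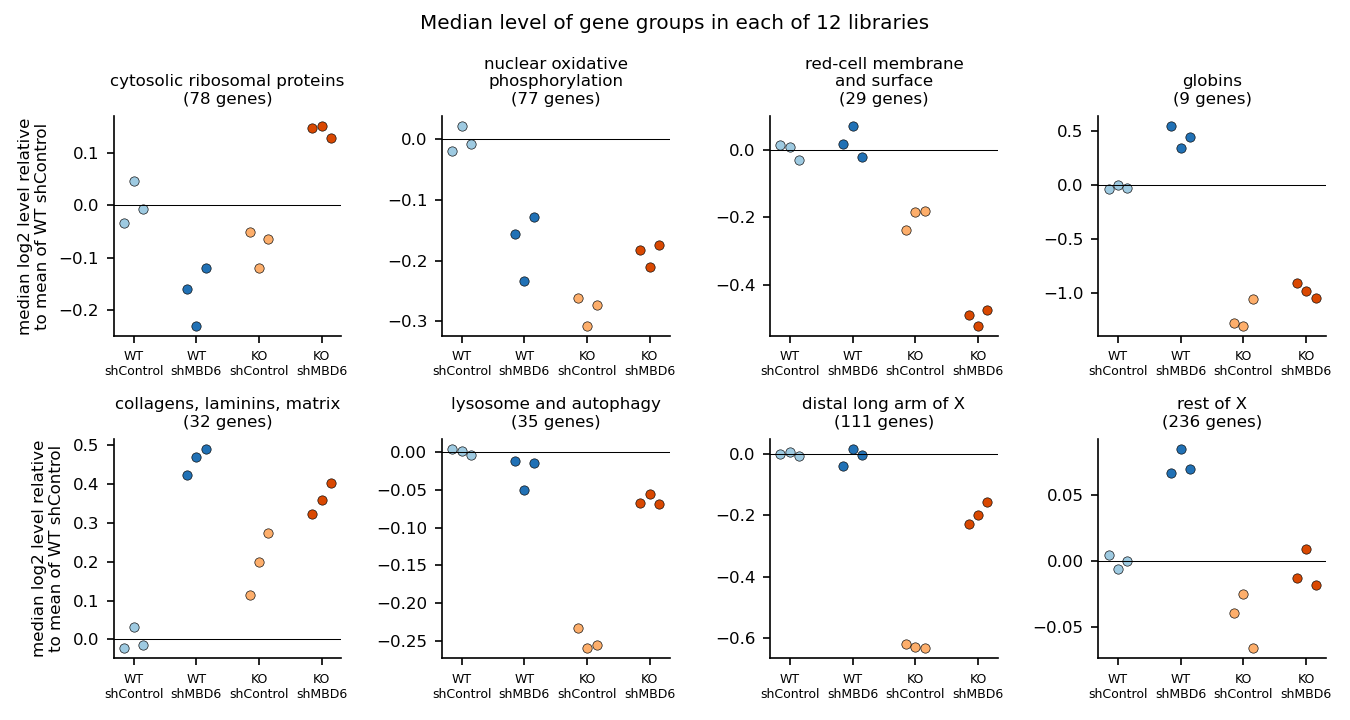
Median log2 level of 8 gene groups in each of the 12 libraries, relative to the mean of the 3 TET2WT-shControl libraries. For distal X the TET2KO-shControl libraries lie near -0.63 and the TET2KO-shMBD6 libraries between -0.23 and -0.16, while red-cell membrane genes are lowest in TET2KO-shMBD6.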

How the data were processed

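Per the labels, polyadenylated RNA was sequenced from K-562 cells, with libraries made by a stranded total RNA kit. The authors trimmed reads with Trimmomatic 0.39, aligned them with HISAT2 2.2.1 to hg38 with ERCC sequences and counted them with HTSeq 0.12.4 over GENCODE 29 genes (versions from the submitters' processing notes). The deposited files hold whole read counts for each gene, with 1 file per library and no scaling. The strand setting of the counting is not stated, so overlapping and antisense genes are uncertain, and reads with several alignments were not counted. The study's own tests used DESeq2 with a spike-in factor.

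The 92 ERCC rows and HTSeq's summary lines entered neither depth nor tests; the share of reads outside genes was 10.4% to 13.8%. Symbols, coordinates, exon lengths and promoters came from GENCODE 44, matched on identifier for 58207 of 58721 genes (99.1%). The 12 libraries shared 1 fit (edgeR 4.0.16 under R 4.3.3, with filterByExpr, TMM, glmQLFit and glmQLFTest), and the interaction and both simple effects were tested, two-sided, with Benjamini-Hochberg adjustment over all 17936 genes and a threshold of 0.05. The common biological coefficient of variation was 0.0618. Levels are TMM-normalised CPM. Alternatives used DESeq2 1.42.0, its size factors, voom from limma 3.58.1, ERCC scaling, other filters, a replicate block, each library left out in turn and a length correction. Replicates differed beyond sampling noise in every group (chi-square per degree of freedom 3.03 to 10.1). The scripts were tested on simulated counts.

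Genes were named by rule: those the study singled out, the 10 most positive and negative, 5 crossing genes in each direction, 3 genes of each kind changed in 1 genotype, up to 4 called members of each list by size, and up to 4 genes of the most deviating 10-Mb window. Exceptions are marked in the text. Some genes of the rule called in fewer than 12 fits without 1 library are left out, and a few others are not reported here. The members, lists and tests were chosen with earlier results of these data known. Promoters were searched for 8 motifs on both strands.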

Additional observations from a re-analysis of the deposited data

Results flagged for a closer look

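The shMBD6 effect differed between genotypes by the interaction test of edgeR for 3820 genes, of which 258 rose in WT and fell in KO and 284 fell in WT and rose in KO. Among the named crossing genes, the interaction on the log2 scale was -1.31 for KCNK1, -1.82 for HECW2, -1.38 for SLC16A9, -1.53 for RPS6KA2 and -1.10 for the long non-coding RNA ENSG00000236194. On the positive side it was 1.43 for the transcribed pseudogene ENSG00000121388, 1.41 for SLC6A19, 1.32 for IGFL2-AS1, 1.31 for TNNI3 and 1.26 for CHCHD6. Each of these passed in all 12 fits that left out 1 library.

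Reads outside any annotated gene, which enter no comparison, made up 13.6% ± 0.319 (SD, n = 3) of reads in TET2KO-shControl against 10.9% ± 0.0907 in TET2WT-shControl. With shMBD6 the shares were 11.9% ± 0.147 in WT and 10.6% ± 0.154 in KO, so the hairpin went with a higher share in WT and a lower one in KO. No sample was tested as an outlier, since every group held 3 libraries.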

How the results depend on the processing

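Counts of calls stayed within 1.5 times of the reported ones with DESeq2 size factors, the DESeq2 test, limma-voom, no filter on low counts, a minimum of 5 CPM and the length trend removed. For the interaction these gave 3841, 3867, 3827, 3988 (of 38911 genes), 3617 (of 10548) and 3514. ERCC scaling gave 13321 interaction calls, 56 positive and 13265 negative. It gave 15475 for the WT effect, 15437 positive and 38 negative, and 6869 positive and 1055 negative for the KO effect. Leaving out 1 library gave 3226 (without TET2KO-shControl replicate 2) to 4077 (without TET2KO-shMBD6 replicate 3) interaction calls, 6151 to 7566 for WT and 5246 to 6269 for KO. Removing the length trend, an alternative chosen after seeing the data, turned MT-CO3 to -0.13 from 0.17, weakened 16 named genes below the threshold and moved 24 of 40 list medians by more than the spread between libraries. The cause was not tested.

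The groups share replicate numbers, but same-numbered libraries did not deviate together: correlations of their deviations ran from -0.14 to 0.20, and not every library correlated best with its own number. They share only a number. With the replicate block 3654 interaction calls were made (1774 positive, 1880 negative), 6905 in WT and 6067 in KO, and 190 of 194 named genes kept their side of the threshold.

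Levels under 0.5 CPM rest on few counts, and 280 calls involve a group at such a level. The higher ERCC share and the length trend both set TET2WT-shControl apart from the rest, and with 1 set of libraries per group they cannot be told apart from the genotype by hairpin effect.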
